A study of Homo sapiens with 4 samples.

Results

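The expression of 8 genes that act in the removal of mitochondria by autophagy (BNIP3, BNIP3L, FUNDC1, FKBP8, PINK1, PHB2, OPTN and FAM162A) was measured on arrays of hypoxic and normoxic HCT116 cells. The members were all probe sets that the platform annotation lists under exactly 1 of these 8 symbols, which gave 18 of the 54675 probe sets on the array. Of the probe sets listed under several genes, 0 named any of the 8. HCT116 is an established human colon cancer line. Both groups were kept without serum for 24 h before the treatment, and the hypoxia group (1% oxygen, 2 arrays) and the normoxia group (21% oxygen, 2 arrays) were then held for 72 h at their oxygen level, so the normoxia arrays also come from serum-starved cells. The labels call the arrays of each group exp A and exp B. They state neither that these are separate cultures nor what arrays with the same letter share, so the p-values measure the spread between these arrays, which may be technical, and the number of arrays limits the precision.

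Mitophagy is the selective delivery of mitochondria to the autophagosome. Receptors that sit in the mitochondrial membrane (BNIP3, BNIP3L, FUNDC1, FKBP8 and, in the inner membrane, PHB2) bind the LC3 and GABARAP proteins of the autophagosome directly. In the other route the kinase PINK1 builds up on damaged mitochondria and starts their marking with ubiquitin, after which ubiquitin-binding adaptors such as OPTN bridge the mitochondrion to LC3. BNIP3 and BNIP3L are long-known targets of the hypoxia-inducible factors (HIF). FAM162A encodes a mitochondrial protein described as a HIF-responsive factor in cell death; it is not a classical LC3-binding receptor, and the group is therefore broader than receptors in the strict sense.

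Of the 17 member probe sets with enough signal to be tested, 10 were called higher in hypoxia and 1 lower, and 6 were not called. The 10 covered both probe sets of BNIP3, both of BNIP3L, both of PINK1, 1 of 2 of OPTN and 3 of 5 of FAM162A, while FUNDC1, FKBP8 and PHB2 had none. A call is a Benjamini-Hochberg adjusted p under 0.05 from limma over 27304 probe sets, on log2(signal + 23.7), a scale that understates changes at low signal; here and below the signal is the MAS5 intensity of a probe set. Across all tested probe sets 13.7% were called higher and 17.1% lower (30.8% in either direction), against 58.8% and 5.88% of the tested member probe sets. The signals of the groups did not overlap for 15 of the 17 tested member probe sets (88.2%; 11 higher in hypoxia and 4 lower), beside 68.5% of all tested probe sets (35.4% higher and 33.2% lower). Taking each gene by its probe set of highest mean signal, 5 of the 8 genes were called higher and 0 lower, beside 14.5% and 21.7% of 12636 tested genes (36.3% in either direction). That mean is over all 4 arrays, so the hypoxia signal takes part in the choice. For OPTN it chose 202074_s_at, called higher. In normoxia alone 202073_at, which was not called, was the brighter (mean 1555 against 1442). By limma 1 of the 8 genes, FUNDC1, was lower at an unadjusted p under 0.05 without passing the adjusted threshold. With 1 array left out, 1 group holds a single array, so the test then rests on the spread of the other group alone. That spread was wider in hypoxia (median SD 0.30 on the log2 scale) than in normoxia (0.17). Calls gained or lost in this way therefore also reflect which array was left out. In these bulk samples fewer cells of a type and less RNA per cell cannot be told apart. These directions are relative to the other genes of an array. Scaled to the spiked hybridization controls, 0 member probe sets were called higher and 4 lower, and over all probe sets the split went from 3738 higher and 4668 lower to 110 and 10150.

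**Figure D1:**
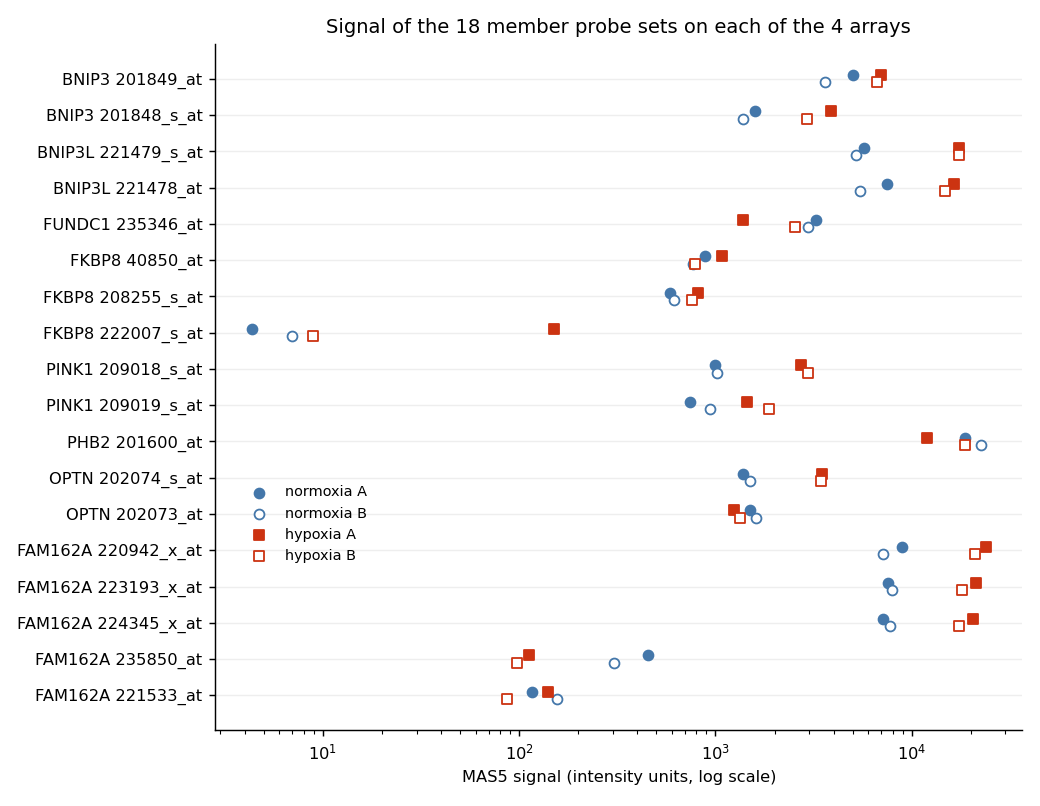
MAS5 signal (horizontal, log scale) of each of the 18 member probe sets (rows) on the 4 arrays, circles for normoxia and squares for hypoxia, filled for A and open for B. The squares of BNIP3L, PINK1, OPTN 202074_s_at and the 3 strong FAM162A probe sets lie clear to the right of the circles, whereas those of OPTN 202073_at and FAM162A 235850_at lie to the left, all on the deposited scale.

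Some properties of the arrays bear on all members. All 4 arrays had the same mean signal, 500.1, once 2% of the values were trimmed from either end. The hybridization controls, which are added in a fixed amount, had geometric means of 2444 and 4595 in normoxia and 9869 and 8594 in hypoxia. Scaling to them shifted the median log2 difference of all tested probe sets by -1.35, and scaling to the 75th percentile shifted it by 0.14. The ratio of the 3′ to the 5′ ACTB control probe set, a sign of RNA quality, was 1.26 and 1.28 in normoxia and 1.66 and 1.77 in hypoxia, while that of GAPDH was 0.918 and 0.996 against 0.912 and 0.955; their part in the results was not tested. The hypoxia label was checked on targets of HIF: VEGFA, NDRG1, ADM and SLC2A1 were each called higher, and CA9 was not analysed here. Of 9 epithelial markers all were past the filter, with EPCAM between 17061 and 29321 on the 4 arrays and KRT19 between 19054 and 36348, although CDX2 (23.0 to 217) and VIL1 (49.9 to 181) were low. Of the 9, 4 were called higher in hypoxia (EPCAM 0.66, CDH1 1.02, KRT19 0.76 and CLDN4 1.45 on the log2 scale) and 0 lower. CDX2 was at -1.60 and not called, with 210 and 217 in normoxia and 23.0 and 107 in hypoxia. Scaled to the hybridization controls the 4 were at -0.80, -0.43, -0.70 and -0.0012, none called. On that scale KRT8 (-1.51, limma adjusted p = 0.0157), KRT18 (-1.36, limma adjusted p = 0.00838) and CDX2 (-2.70, limma adjusted p = 0.00526) were called lower. The summed signal of the list was 77050.2 and 91117 in normoxia and 124214 and 113033 in hypoxia. The 3 leukocyte markers with a probe set summed to 70.1 and 233 in normoxia and 128 and 111 in hypoxia, and the 3 endothelial markers to 89.1 and 215 against 269.99 and 303. Of these 6 markers 5 were under the filter and could not be called, and the other, PECAM1, was not called (1.07, limma adjusted p = 0.185). The 4 fibroblast markers summed to 678 and 945 in normoxia and 2003 and 2632 in hypoxia, most of it COL1A1, which was called higher; the part of these markers in the results was not tested.

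The RefSeq promoter table (GRCh38.p14) listed start site windows for 5 of the 8 genes, without BNIP3L, PINK1 and FKBP8. BNIP3 and FAM162A, which were called higher and whose windows hold the core letters of the HIF binding motif, are shown by their 250 bases before the start with those letters in capitals, beside FUNDC1, which was not called. The motifs searched were ACGTG and GCGTG on both strands (CACGT and CACGC on the strand shown), and matches that overlap were joined.
BNIP3, chr10:131981924-131982173, minus strand: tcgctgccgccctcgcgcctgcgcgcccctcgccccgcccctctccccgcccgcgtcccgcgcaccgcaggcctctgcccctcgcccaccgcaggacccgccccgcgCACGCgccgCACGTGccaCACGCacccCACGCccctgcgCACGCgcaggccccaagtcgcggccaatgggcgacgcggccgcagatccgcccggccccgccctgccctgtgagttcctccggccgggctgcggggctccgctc
FAM162A, chr3:122383932-122384181, plus strand: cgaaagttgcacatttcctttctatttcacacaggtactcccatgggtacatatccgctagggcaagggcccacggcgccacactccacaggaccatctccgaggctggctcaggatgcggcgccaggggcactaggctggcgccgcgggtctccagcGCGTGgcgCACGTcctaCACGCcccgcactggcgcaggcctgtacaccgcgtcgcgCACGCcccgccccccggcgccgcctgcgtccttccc
FUNDC1, chrX:44542860-44543109, minus strand: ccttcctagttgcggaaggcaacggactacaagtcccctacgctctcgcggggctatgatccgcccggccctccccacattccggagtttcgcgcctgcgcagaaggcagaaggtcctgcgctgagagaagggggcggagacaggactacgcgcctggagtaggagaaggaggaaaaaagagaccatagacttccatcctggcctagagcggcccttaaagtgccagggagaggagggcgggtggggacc
The BNIP3 window held 5 such sites within 143 to 100 bases before the start, 1 of them the joined CACGTG at 134 to 129 bases, which matches ACGTG on both strands. The FAM162A window held 4 sites, from 92 to 32 bases before the start. Neither motif was found in the window of FUNDC1, nor in the windows listed for PHB2 and for OPTN, which was called higher on 1 probe set; this says only that these letters are not in those 250 bases. Of 35116 windows of the same length, 18.5% held ACGTG, 32.2% held GCGTG and 43.2% held either, while 1.85% held at least 4 joined sites and 0.629% at least 5. A match is a description of the sequence and was not tested as a binding site.

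BNIP3L, also known as NIX, the outer membrane receptor best known from the clearing of mitochondria in maturing red cells, rose on both of its probe sets. Probe set 221479_s_at read 5735 and 5221 on normoxia A and B, and 17471 and 17376 on hypoxia A and B. Each hypoxia value was well above each normoxia value, and the hypoxia arrays were almost level. The mean signal was 3.18-fold higher in hypoxia, with a log2 difference of 1.67 ± 0.17 SE (limma adjusted p = 1.95e-04, n = 2 arrays per group). This was the largest log2 difference among the tested member probe sets, and 93.6% of all tested probe sets had a lower log2 difference. The second probe set, 221478_at, read 7467 and 5459 in normoxia and 16442 and 14705 in hypoxia, again without overlap. Its mean signal was 2.41-fold higher, with a log2 difference of 1.28 ± 0.20 SE (limma adjusted p = 0.00153; 0.0548 and not called without an intensity trend). Scaled to the hybridization controls the log2 differences were 0.21 and -0.17 and neither was called, at 1.51 and 1.12 above the median probe set there.

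BNIP3, the close relative of BNIP3L and a receptor on the outer membrane, was higher in hypoxia on both probe sets. The stronger probe set, 201849_at, read 5025 and 3617 in normoxia and 6946 and 6619 in hypoxia. The normoxia arrays differed more from each other than the hypoxia arrays did, but the groups did not overlap. The rise was 1.57-fold in mean signal, with a log2 difference of 0.67 ± 0.20 SE (limma adjusted p = 0.0300). Without normoxia B the log2 difference was 0.43 and was not called. The other probe set, 201848_s_at, read 1591 and 1378 in normoxia and 3886 and 2912 in hypoxia. Here the rise was 2.29-fold, with a log2 difference of 1.17 ± 0.20 SE (limma adjusted p = 0.00281). The ratio of the signals of 201849_at to 201848_s_at within an array was 3.16 and 2.63 in normoxia and 1.79 and 2.27 in hypoxia, so the 2 probe sets changed unequally. Without an intensity trend in the variance model neither BNIP3 probe set was called (limma adjusted p = 0.162 and 0.0622). Scaled to the hybridization controls both turned negative (-0.79 and -0.27) and neither was called, at 0.51 and 1.02 above the median probe set there.

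PINK1, the kinase that starts the ubiquitin route, rose on both probe sets. Probe set 209018_s_at read 993 and 1014 in normoxia and 2736 and 2944 in hypoxia. Its mean signal was 2.83-fold higher in hypoxia, with a log2 difference of 1.48 ± 0.18 SE (limma adjusted p = 5.48e-04), and the difference was nearly the same between the A arrays (1.44) as between those labelled B (1.52). Probe set 209019_s_at read 742 and 935 in normoxia and 1442 and 1872 in hypoxia, and the groups did not overlap on either probe set. The second rise was 1.98-fold, with a log2 difference of 0.96 ± 0.23 SE (limma adjusted p = 0.0127). It kept its direction without normoxia A (0.80) and without normoxia B (1.12), but it was not called in either fit. Its call was also lost without an intensity trend (limma adjusted p = 0.0882). The log2 differences were 0.04 and -0.47, not called, when scaled to the hybridization controls, which is 1.34 and 0.83 above the median probe set.

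OPTN, the optineurin adaptor that links ubiquitin on mitochondria to LC3, gave opposite signs on its 2 probe sets. Probe set 202074_s_at read 1385 and 1498 in normoxia and 3502 and 3466 in hypoxia, well apart. The rise was 2.42-fold in mean signal, with a log2 difference of 1.26 ± 0.18 SE (limma adjusted p = 9.31e-04). Probe set 202073_at read 1492 and 1618 in normoxia and 1242 and 1339.5 in hypoxia, so that both hypoxia values were lower, by less than the test could call (log2 difference -0.26, 95% interval -0.70 to 0.17, limma adjusted p = 0.331). The ratio of 202074_s_at to 202073_at within an array was 0.928 and 0.926 in normoxia and 2.82 and 2.59 in hypoxia. The suffix s marks probe sets that can match several transcripts; which transcripts of OPTN each probe set reads was not analysed here. With the hybridization controls as the scale, 202074_s_at was at -0.18 and not called, and 202073_at at -1.70 (limma adjusted p = 0.0467).

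FAM162A had 5 probe sets, of which 3 rose, 1 fell and 1 was not called. The 3 strong probe sets all carry the suffix x, the maker's mark for probes that may bind other transcripts too. Probe set 220942_x_at read 8892.5 and 7098 in normoxia and 23813 and 21061 in hypoxia, a 2.81-fold rise with a log2 difference of 1.49 ± 0.19 SE (limma adjusted p = 5.75e-04). Probe set 223193_x_at read 7607 and 7969 in normoxia and 21168 and 17918 in hypoxia, with a log2 difference of 1.32 ± 0.18 SE (limma adjusted p = 7.53e-04). Probe set 224345_x_at read 7164 and 7736 in normoxia and 20550.0 and 17372 in hypoxia, with a log2 difference of 1.34 ± 0.18 SE (limma adjusted p = 7.14e-04). The 3 moved closely together, and on each the groups lay far apart. Scaled to the hybridization controls they were at 0.04, -0.14 and -0.11, none called, which is 1.16 to 1.33 above the median probe set there.

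The remaining FAM162A probe sets were weak. Probe set 235850_at read 452 and 305 in normoxia and 113 and 97.9 in hypoxia, lower on both hypoxia arrays. It was the 1 member probe set called lower, with a log2 difference of -1.62 ± 0.47 SE (limma adjusted p = 0.0292). Both of its hypoxia values were below the brightest control probe set for a Bacillus transcript (305 on hypoxia A and 226 on hypoxia B). That control read 45.7 on normoxia A and 121 on normoxia B, so the level differed between the groups. The call was lost without normoxia A (-1.35, limma adjusted p = 0.368), without normoxia B (-1.88, limma adjusted p = 0.120) and with no filter (limma adjusted p = 0.0577). The last probe set, 221533_at, read 116 and 156 in normoxia and 139 and 87.2 in hypoxia, with overlapping groups and no call (limma adjusted p = 0.810).

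**Figure D2:**
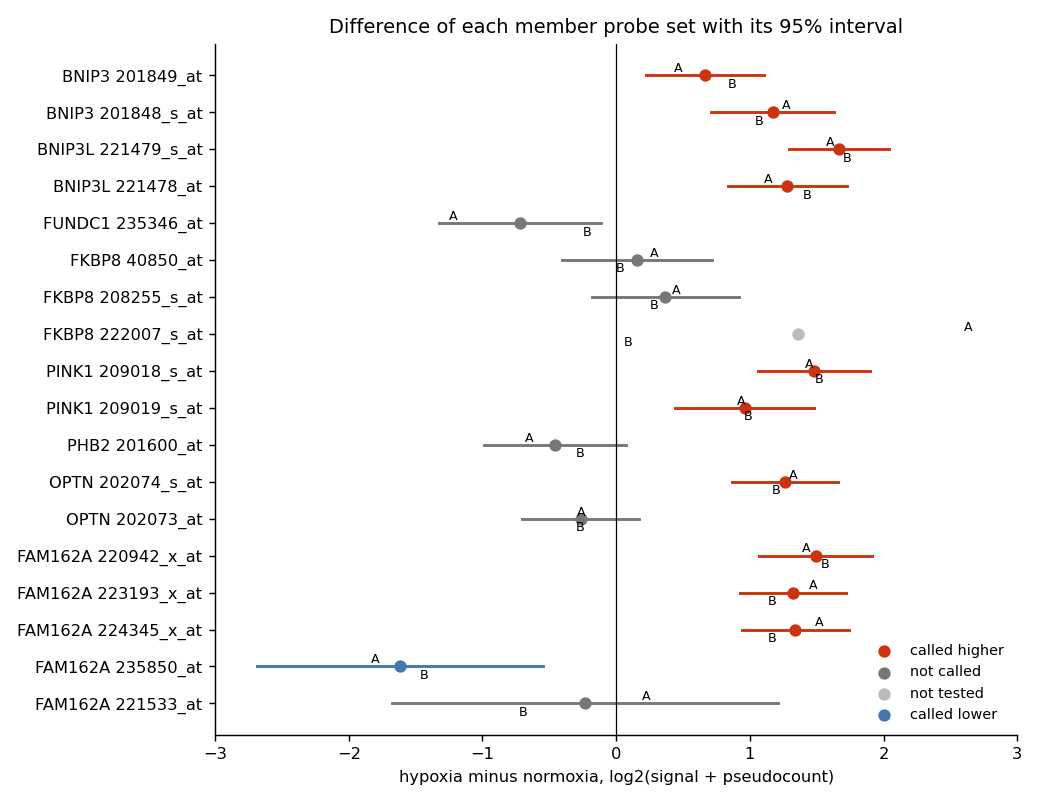
Log2 difference of hypoxia minus normoxia (horizontal) for each member probe set (rows), with the 95% interval from limma as a bar and each letter's own difference as A or B; red is called higher, blue called lower, dark grey not called and light grey not tested. The letters of PINK1 lie close together (1.44 and 1.52 on 209018_s_at), whereas those of FUNDC1 lie apart (-1.22 and -0.22); scaled to the hybridization controls, the rises of BNIP3, OPTN and others turn negative.

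FUNDC1, a receptor on the outer membrane known for its phosphorylation switch in hypoxia, had 1 probe set (235346_at), which read 3267 and 2969 in normoxia and 1388 and 2553 in hypoxia. Both hypoxia values were lower, but the hypoxia arrays differed widely from each other. The log2 difference was -0.72 ± 0.27 SE with a 95% interval of -1.32 to -0.11, and was not called (limma adjusted p = 0.0711). It was -1.15 and called without hypoxia B (limma adjusted p = 9.44e-05), and -0.28 and not called without hypoxia A (limma adjusted p = 0.153). Scaled to the hybridization controls it was -2.16 and called lower (limma adjusted p = 0.00794). PHB2, prohibitin 2 of the inner membrane, showed the same array apart on probe set 201600_at, with 18756 and 22510.1 in normoxia and 11968 and 18696 in hypoxia. Hypoxia B was almost level with normoxia A there. Its log2 difference of -0.46 ± 0.24 SE (95% interval -0.99 to 0.08) was not called (limma adjusted p = 0.172), but was called without hypoxia B (-0.78, limma adjusted p = 0.0237), under quantile normalization (-1.02, limma adjusted p = 0.00420) and when scaled to the hybridization controls (-1.91, limma adjusted p = 6.73e-04).

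FKBP8, an outer membrane receptor of the FK506-binding protein family that also binds BCL2, was not called on any probe set. Probe set 40850_at read 886 and 773 in normoxia and 1083 and 789.6 in hypoxia, with overlapping groups and a log2 difference of 0.16 (95% interval -0.40 to 0.72, limma adjusted p = 0.663). Probe set 208255_s_at read 587 and 615 in normoxia and 810.2 and 755 in hypoxia, higher on both hypoxia arrays, with a log2 difference of 0.37 (95% interval -0.18 to 0.92, limma adjusted p = 0.280). The intervals extend up to log2 differences of 0.72 and 0.92, so the data do not show that FKBP8 was level, and scaled to the hybridization controls both values turned negative (-1.26 and -1.04, not called). The third probe set, 222007_s_at, was under the filter and not tested, and read 4.35 and 6.95 in normoxia and 150.4 and 8.89 in hypoxia, high on hypoxia A alone.

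**Figure D3:**
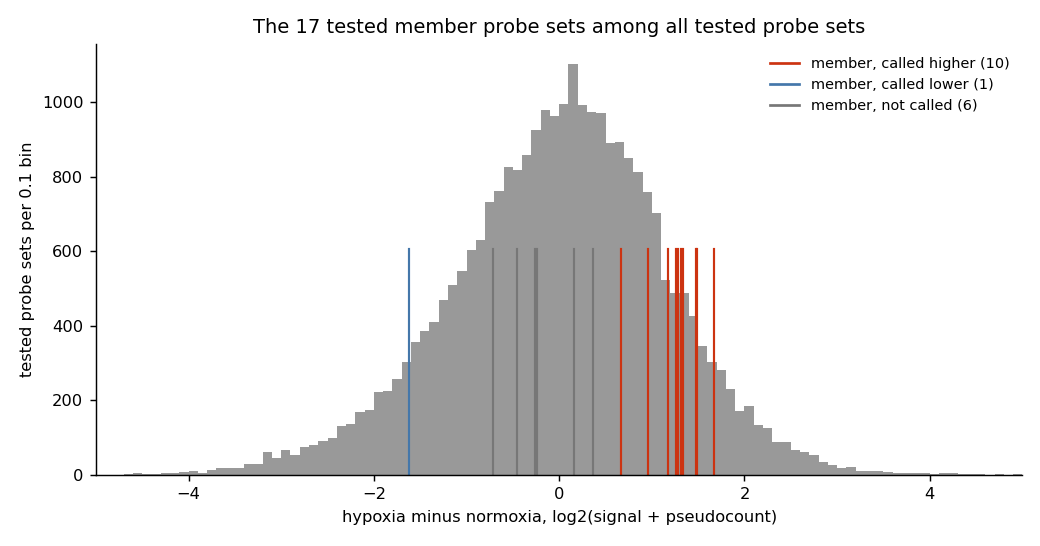
Number of tested probe sets per bin of log2 difference, hypoxia minus normoxia (grey histogram), with the 17 tested member probe sets as vertical lines of equal height. The 10 members called higher lie between 0.67 and 1.67, and the 1 called lower at -1.62, on the deposited scale; with the hybridization controls as the scale 0 are called higher.

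The median log2 difference over all 18 member probe sets was 1.07, beside 0.05 over all tested probe sets. Scaled to the 75th percentile the members' median was 1.21, under quantile normalization 1.03 and scaled to the hybridization controls -0.37. Set against the median of all tested probe sets under the same scaling, the members' median was 1.01, 1.02, 1.03 and 0.93 for the deposited values, the 75th percentile, quantile normalization and the hybridization controls. Under each of these 4 scalings 13 of the 18 member probe sets lay above that median. Scaling to the 75th percentile or to the hybridization controls multiplies each array by 1 factor. Subtracting the median takes most of that shift out, so closeness to the deposited values is largely built in there. It is not separate support. The same holds for the distances from the median probe set given above for single probe sets. The 13 and the members' medians include FKBP8 222007_s_at, which was under the filter and so outside the tested probe sets. It was high on hypoxia A alone and lay 1.14 to 2.08 above that median. The 10 probe sets called higher lay 0.51 to 1.51 above it when scaled to the hybridization controls.

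**Figure D4:**
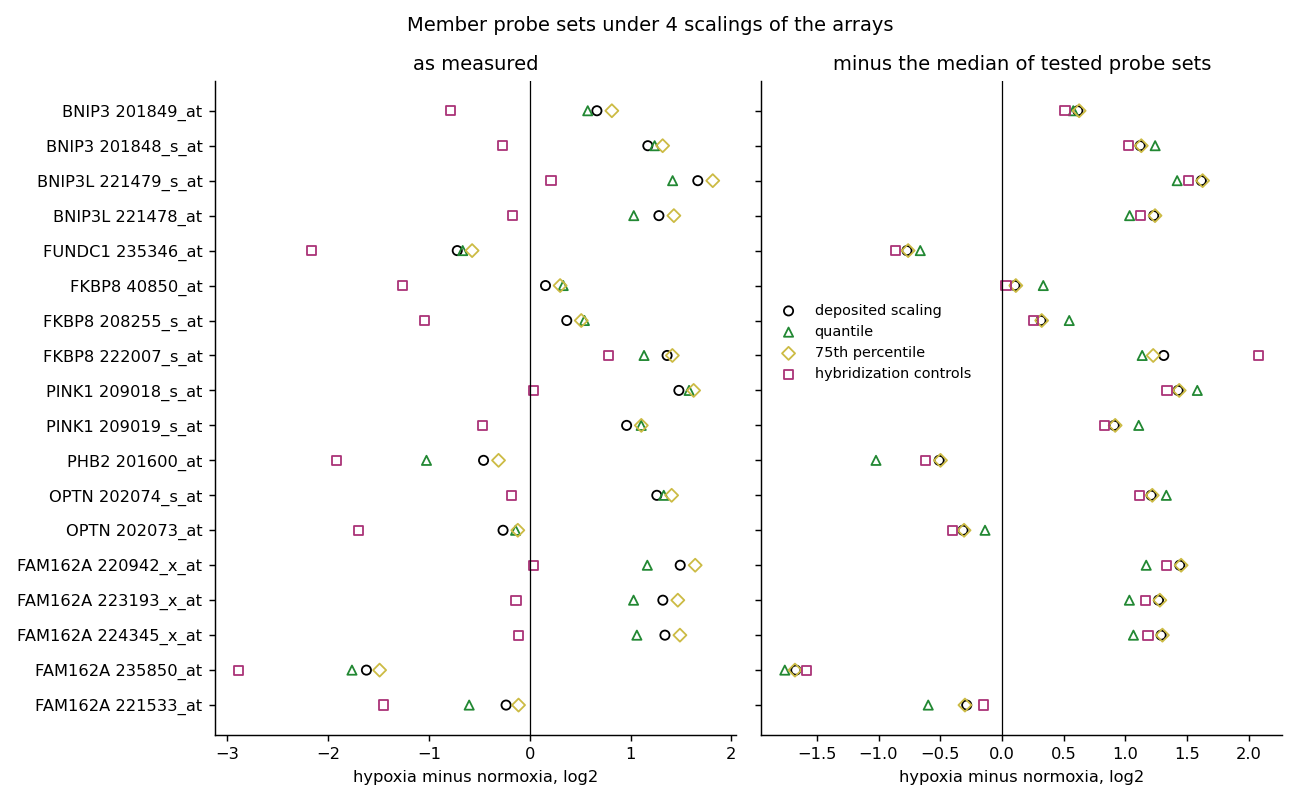
Log2 difference of each member probe set (rows) under 4 scalings of the arrays, as measured on the left and minus the median of all tested probe sets on the right. With the hybridization controls (squares) all members shift to the left, and BNIP3, OPTN and others cross 0; on the right the 4 symbols of a probe set mostly lie close together.

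The profiles most like those of 3 members were sought among 12635 other tested genes, by the Euclidean distance over the 4 arrays between log2 profiles centred on their means. The nearest to BNIP3L 221479_s_at were SH3BP4 (distance 0.04 on the log2 scale), FOXK2 (0.10) and WDR26 (0.10). The nearest to BNIP3 201849_at were RASA2 (0.08), TTC39B (0.08) and RRBP1 (0.09), which share its lower signal on normoxia B than on normoxia A. FAM162A 220942_x_at was nearest to KLHL28 (0.08), RPS6KA3 (0.09) and ZNF503 (0.10). The distances are a description of these 4 arrays.

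The wider pathway was described by 4 lists with 56 genes, of which 52 had a tested probe set. Each gene was taken by its probe set of highest mean signal over the 4 arrays, so the hypoxia signal took part in the choice. Of the 52, 5 were called higher (9.62%, beside 14.5% of all tested genes) and 17 lower (32.7%, beside 21.7%), and 30 were not called. Of these 30 genes, 7 had another probe set that was called, which the counts by gene leave out. The median log2 difference was -0.18, beside -0.03 over all tested genes. The other 4 listed genes were not analysed here.

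In the list of the PINK1 pathway, 6 of 15 tested genes fell, 1 rose and 8 were not called, with a median of -0.42. PARL, the inner membrane protease that cleaves PINK1, read 2116 and 2331 in normoxia and 721 and 633 in hypoxia (log2 difference -1.68 ± 0.20 SE, limma adjusted p = 4.84e-04). OMA1, another inner membrane protease, read 1269 and 844 in normoxia and 405 and 247 in hypoxia (-1.64, limma adjusted p = 0.00565). Without normoxia A OMA1 was at -1.35 and not called. Both proteases were thus lower on each hypoxia array than on either normoxia array. The mitofusin gene MFN1, an outer membrane fusion protein that is marked with ubiquitin in mitophagy, fell on all 3 of its probe sets (-1.56, -1.69 and -1.72). The second of these read 166 on hypoxia A, under the Bacillus control of that array (305), and 244 on hypoxia B. TOMM70, a receptor of the import pore, fell on both of its probe sets (-1.53 and -0.70). USP8 (-1.40), a deubiquitinase, and TOMM22 (-1.19, with others at -0.67 and 1.15 that were not called), a core import receptor, were the other genes that fell. TOMM20, the import receptor that often serves as a marker of the outer membrane, was the gene that rose (1.05; -0.41 and not called when scaled to the hybridization controls), with another probe set at -0.34. USP8, TOMM22 and TOMM20 are named after their values were seen.

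Among 8 ubiquitin-binding cargo adaptors and their regulators, TAX1BP1 was the 1 gene called by its brightest probe set. It read 5625 and 5653 in normoxia and 10358 and 9860.4 in hypoxia (log2 difference 0.84 ± 0.16 SE, limma adjusted p = 0.00456), and was at -0.61 and not called when scaled to the hybridization controls. Its other probe sets gave 0.98 and -0.22. The list median was 0.17. SQSTM1, or p62, was at 0.34 (limma adjusted p = 0.142), with a weak probe set called at 2.55 (limma adjusted p = 0.00642). TOLLIP was at 0.01 (limma adjusted p = 0.990), with another probe set called at 1.10 (limma adjusted p = 0.0446; -0.26 and not called when scaled to the hybridization controls). CALCOCO2, or NDP52, was at -0.50 (limma adjusted p = 0.0573), with another probe set of opposite sign at 0.51 (limma adjusted p = 0.129), neither called. These 3 genes were chosen with their values in view.

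Among 12 other mitochondrial receptors and binding partners, 6 fell, 1 rose and 5 were not called, with a median of -0.59. DELE1, which relays mitochondrial stress to the cytosol, had the largest fall of the list, from 1115 and 1018 in normoxia to 207 and 87.0 in hypoxia (log2 difference -2.77 ± 0.40 SE, limma adjusted p = 0.00110), with both hypoxia values under the highest Bacillus control on their arrays, so that the size of this fall is uncertain too. PHB1, the partner of PHB2 in the prohibitin ring, read 4954 and 4726 in normoxia and 1747 and 2077 in hypoxia (-1.33 ± 0.18 SE, limma adjusted p = 7.42e-04), and its second probe set was at -2.02. PHB1 was thus called lower where PHB2 (-0.46) was not; whether the 2 differ was not tested. SAMM50, which assembles outer membrane proteins, fell by 1.04 on the log2 scale, to 1392 and 811 in hypoxia from 2223 and 2192 in normoxia (limma adjusted p = 0.0148). Its log2 difference ran from -1.42 to -0.66 with 1 array left out, and its call was lost when either normoxia array was the one left out. FUNDC2, the paralogue of FUNDC1, rose from 2424 and 2380 (normoxia A and B) to 5234 and 5420.5 (hypoxia A and B), with a log2 difference of 1.14 ± 0.16 SE (limma adjusted p = 0.00110). It was at -0.31 and not called when scaled to the hybridization controls, and its weak second probe set was at -0.55. NIPSNAP1 (-0.63) and NIPSNAP2 (-0.55), which mark damaged mitochondria for adaptors, and MTX1 (-0.80), a partner of SAMM50, also fell and were named after their values were seen. With 1 array left out the log2 differences ran from -0.77 to -0.49 for NIPSNAP1, -0.63 to -0.47 for NIPSNAP2 and -0.81 to -0.79 for MTX1. Each lost its call in some of these fits. NIPSNAP1 was also not called under quantile normalization (limma adjusted p = 0.0546). Scaled to the 75th percentile, NIPSNAP1 and NIPSNAP2 were not called (limma adjusted p = 0.0847 and 0.101). MTX1 stayed called under both scalings.

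Among 17 genes that modify the receptors or their turnover, 5 fell, 2 rose and 10 were not called, with a median of -0.25. FBXL4, the F-box protein of the ubiquitin ligase that keeps BNIP3 and BNIP3L protein low, fell on all 3 of its probe sets. The strongest read 1102 and 1051 in normoxia and 212 and 230 in hypoxia (limma adjusted p = 6.47e-04). The others read 583 and 540 in normoxia against 202 and 11.3 in hypoxia, and 699.5 and 611 against 199 and 9.14. On hypoxia A all 3 were below the brightest Bacillus control of that array (305), and on hypoxia B 2 were below it (226) and the strongest was level with it. The fitted log2 differences (-2.17, -2.72 and -2.99) thus rest on hypoxia signals at about that level or under it, and their size is uncertain. PPTC7, a mitochondrial phosphatase that works with FBXL4 in that turnover, rose on all 3 of its probe sets. Its strongest read 4370 and 4711 in normoxia and 8609 and 8691 in hypoxia (log2 difference 0.93 ± 0.16 SE, limma adjusted p = 0.00291; -0.53 and not called when scaled to the hybridization controls), and the others were at 1.26 and 1.66. PPTC7 was named after its values were seen. FBXL4 and PPTC7, which act together on the BNIP3 and BNIP3L proteins, thus had opposite signs at the RNA level on the deposited scale. Both were negative when scaled to the hybridization controls (-3.53 and -0.53).

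Of the other genes of that list, FIS1, a mitochondrial fission protein, read 2232 and 2013 in normoxia and 856 and 538 in hypoxia (log2 difference -1.61 ± 0.25 SE, limma adjusted p = 0.00165). PGAM5, the phosphatase that activates FUNDC1, read 770.1 and 699 in normoxia and 286 (under the Bacillus control of that array) and 326 in hypoxia (-1.20, limma adjusted p = 0.0126). Its log2 difference ran from -1.29 to -1.11 with 1 array left out, and its call was lost in some of these fits. OPA1, the inner membrane fusion protein, fell on all 3 of its tested probe sets (-1.12, -1.62 and -1.68). The first ran from -1.21 to -1.02 with 1 array left out, and its call was lost in some of these fits. The last read 159 on hypoxia A, under the Bacillus control of that array, and 266 on hypoxia B. By their brightest probe sets, the kinases that act on FUNDC1 were not called: ULK1 was at 0.50, SRC at -0.25 and the CK2 subunit genes CSNK2A1, CSNK2A2 and CSNK2B at 0.03, 0.31 and -0.49, and MARCHF5, the ubiquitin ligase of FUNDC1, was at 0.33; all 6 are named with their values known. Other probe sets of these genes were called: 1 of CSNK2A1 at 0.62 (limma adjusted p = 0.0313) and 1 of CSNK2A2 at 0.94 (limma adjusted p = 0.00693), which turned to -0.82 and -0.50, not called, when scaled to the hybridization controls, and 1 of MARCHF5 at -0.67 (limma adjusted p = 0.0254). MFF, a receptor of the fission machinery, and SKP1, a subunit of the ligase that holds FBXL4, were likewise not called by their brightest probe sets (0.12 and 0.34), but had 3 and 2 others called lower (-1.38, -1.16 and -1.55 for MFF and -1.20 and -0.94 for SKP1). DNM1L, which drives fission, and RHEB, a GTPase that binds BNIP3L, complete the called genes and were also named after their values were seen. DNM1L was at -0.71 (limma adjusted p = 0.0122), and its other tested probe set, at -0.29, was not called. RHEB was at 0.52 (limma adjusted p = 0.0481), and at -0.94 when scaled to the hybridization controls. The other tested probe sets of RHEB (0.33, 0.08, 0.51, 0.49 and -0.38) were not called. With 1 array left out the differences ran from -0.79 to -0.64 for DNM1L and 0.42 to 0.62 for RHEB. Each lost its call in some of these fits. RHEB was also not called under quantile normalization (limma adjusted p = 0.110). The number of genes of this list called in either direction changed with the array left out, which also reflects the spread of the group left whole.

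**Figure D5:**
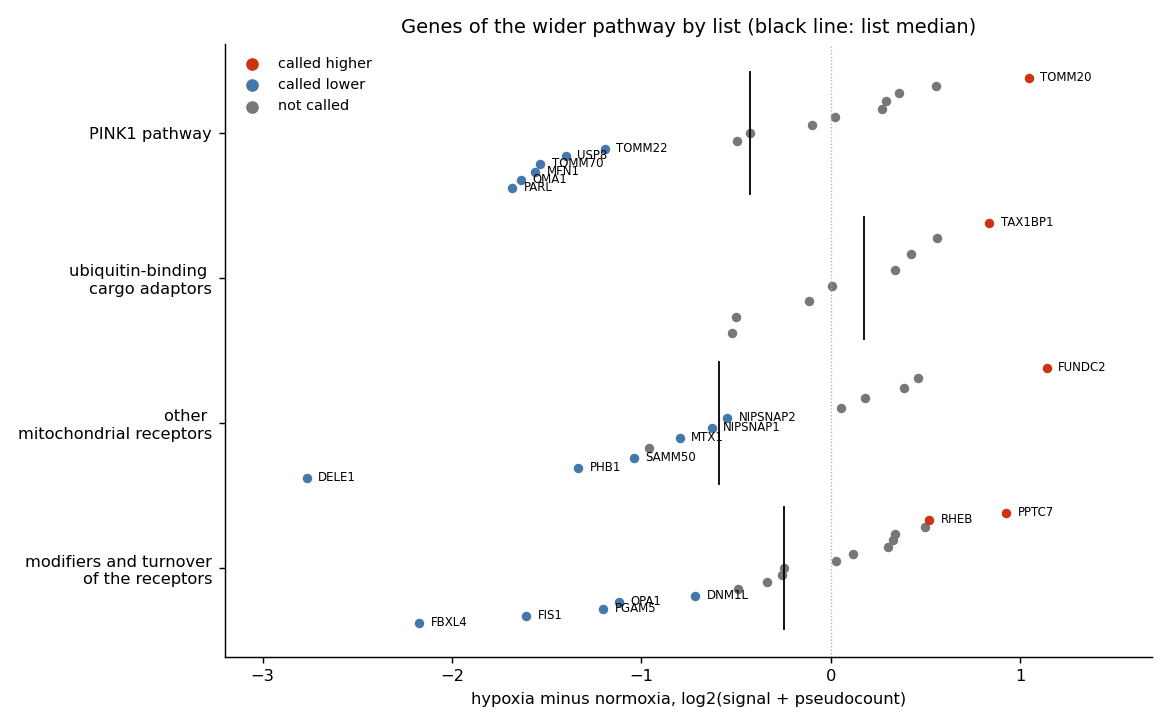
Log2 difference of hypoxia minus normoxia (horizontal) for the 52 genes of the 4 lists, 1 point per gene, red for called higher, blue for called lower and grey for not called; a black line marks each list's median. The falls of DELE1 (-2.77) and FBXL4 (-2.17) lie farthest left, and the genes called higher, TOMM20, TAX1BP1, FUNDC2, PPTC7 and RHEB, all turn negative when scaled to the hybridization controls.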

How the data were processed

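Values are MAS5 signals deposited by the authors, 1 linear intensity per probe set, per the submitters' processing notes; the MAS5 version and detection calls are not given in the sources used here. Labelled cRNA was hybridized to the arrays, per the labels' protocols. Groups follow the labelled oxygen level, and 0 of the 6 pairs of arrays held identical values. Probe sets were named through the platform annotation, and pathway genes through current RefSeq symbols. Of 54675 probe sets, 62 were controls, and the 27304 others with a mean signal of 97.4 or more (the median over probe sets) were tested. The 25th percentile of all values, 23.7, was added before log2. The groups were compared under R 4.3.3 by limma 3.58.1, whose lmFit and eBayes functions were run with an intensity trend; p-values are two-sided and adjusted by Benjamini and Hochberg over all tested probe sets. The fit was tested on simulated data. Plots are from matplotlib 3.10.9 under Python 3.11.15.

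All member probe sets are given. Of each pathway list up to 4 called genes with the largest log2 difference are named, or up to 2 with the smallest p where none is called, and for 3 members the 3 nearest profiles. The members, lists and settings were chosen with earlier results of these data known. Alternatives were other scalings, pseudocounts, filters and variance models, 1 probe set per gene, a threshold of 0.01, the letters as a block and each array left out.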

Additional observations from a re-analysis of the deposited data

How the results depend on the processing

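Between 8 and 10 member probe sets were called higher, beside 10 in the main analysis, under all alternatives except scaling to the hybridization controls (0) and a variance model without an intensity trend (6). The single call lower became 2 under quantile normalization, 4 when scaled to the hybridization controls, and 0 with no filter and at a threshold of 0.01. It was also 0 with the filter at the 75th percentile (455). There FAM162A 235850_at, with a mean signal of 242, did not pass the filter and was not tested. Member genes called higher numbered 0 with the hybridization controls, and member genes called lower 1 under quantile normalization, 2 with the hybridization controls and 0 to 2 with 1 array left out. The members' median log2 difference was 1.21 at the 75th percentile, -0.37 with the hybridization controls, 0.78 with the median of all values as pseudocount, and 0.80 to 1.06 with 1 array left out. With the hybridization controls the log2 differences that turned were those of BNIP3 (-0.79 and -0.27), BNIP3L 221478_at (-0.17), FKBP8 (-1.26 and -1.04), PINK1 209019_s_at (-0.47), OPTN 202074_s_at (-0.18), FAM162A 223193_x_at (-0.14) and 224345_x_at (-0.11), TOMM20 (-0.41), TAX1BP1 (-0.61), FUNDC2 (-0.31), RHEB (-0.94) and PPTC7 (-0.53). FKBP8 40850_at ranged from -0.065 (without hypoxia A) to 0.38 with 1 array left out, and FAM162A 221533_at from -0.51 to 0.045 (without hypoxia B); neither is called. The labels name exp A and exp B in both groups without saying what a shared letter means; the deviations of same-letter arrays correlated at 0.06 across tested probe sets, and with the letter as a replicate block the calls over all probe sets went from 3738 higher and 4668 lower to 4446 and 5669, member probe sets called lower from 1 to 2, member genes called lower from 0 to 1 (FUNDC1, adjusted p = 0.00232 with limma) and cargo adaptors called lower from 0 to 2. Over all probe sets the calls higher and lower were 1704 and 2120 without an intensity trend, 2049 and 2676 at a threshold of 0.01, and 2267 to 5000 and 2043 to 6785 with 1 array left out; they split 44.5% higher, or 53.9% at the 75th percentile and 1.07% with the hybridization controls.

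For the pathway lists, the genes called higher (PINK1 pathway, adaptors, other receptors, modifiers) were 2, 2, 2 and 2 at the 75th percentile, 0 in each with the hybridization controls, and 0, 0, 1 and 0 without an intensity trend; the modifiers called higher were 1 under quantile normalization, with a pseudocount of 1, with no filter and at a threshold of 0.01. With 1 array left out they were 1 to 2 for the adaptors and other receptors and 1 to 4 for the modifiers. Adaptors called lower were 3 with the hybridization controls, 2 with the filter at the 75th percentile, 1 with 1 probe set per gene and 0 to 1 with 1 array left out. Other receptors called lower were 2 without an intensity trend, 3 at a threshold of 0.01 and 2 to 6 with 1 array left out, and modifiers called lower were 10 with the hybridization controls, 3 without an intensity trend and at a threshold of 0.01, and 2 to 6 with 1 array left out. The cause of these changes was not tested, except that a stricter threshold calls fewer genes by construction. All counts with 1 array left out rest on the spread of the other group alone, as described above.

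One probe set per gene gave no count of member probe sets, and filters, variance models and thresholds leave the members' median as it is. Signals near the background limit FAM162A 235850_at and 221533_at, FKBP8 222007_s_at, DELE1, FBXL4 and PGAM5.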

Other observations

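The antisense transcript PINK1-AS, which overlaps the PINK1 gene, has a probe set of its own (244486_at), which is outside the members. It read 308 and 169 on normoxia A and B and 355 and 135 on hypoxia A and B, with overlapping groups and a log2 difference of -0.04 (limma adjusted p = 0.960).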
